A study of Homo sapiens with 8 samples.

Results

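Among the genes whose levels separated wild-type and mutant HMGN1 lines of the NALM6 leukemia, 10 are described here: WBP5, SOHLH2, PRKACB, GNG11, ZNF354B, PRAF2, S100A4, EFNB2, NAALADL2 and SAMHD1. They are 10 of 23621 gene rows and were selected on the difference of their measured levels between the libraries of the 2 constructs, so the construct difference itself is given as a description, with no test. Tests are given on what the selection did not use: the doxycycline treatment, the replicate letter, related genes and neighbouring genes.

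NALM6 is a human cell line grown from a leukemia of B-cell precursors, and HMGN1 is a protein that binds nucleosomes. In the SE libraries the cells carried HMGN1 with the S20,24E change, a mutant labelled as deficient in nucleosome binding, and in the WT libraries wild-type HMGN1 (titled SE_HA and WT_HA). HMGN1 expression was to be induced with doxycycline (DOX) at 100 ng/ml for 6 hours, and controls received vehicle for the same time. The 4 groups were SE DOX, SE vehicle, WT DOX and WT vehicle, with 2 libraries each, labelled biological replicate A and B. How the cultures were kept apart, whether each construct stands for 1 cell population and what the vehicle cells share with the others beyond the construct are not stated by the sources at hand. A line with a construct and the construct itself therefore cannot be told apart, and p-values measure only the spread between these samples. Levels are given as the authors deposited them, in unnormalized FPKM, a fragment count divided by transcript length and library size.

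The 10 genes belong to unrelated families. SOHLH2 encodes a basic helix-loop-helix transcription factor that acts in germ-cell differentiation, known mainly from the mouse. ZNF354B encodes a zinc finger protein of the KRAB class, whose members recruit the co-repressor TRIM28. WBP5, named TCEAL9 in RefSeq, belongs to the BEX and TCEAL genes of the X chromosome. PRKACB encodes a catalytic subunit of protein kinase A, the kinase that cyclic AMP switches on. GNG11 encodes a gamma subunit of the heterotrimeric G proteins that relay signals from surface receptors. EFNB2 encodes ephrin-B2, a membrane-bound ligand of Eph receptors, best known as a marker of arterial endothelium. S100A4 is a small calcium-binding protein that binds non-muscle myosin. PRAF2 is a membrane protein of the PRA1 family in the secretory pathway. SAMHD1 degrades deoxynucleotides and, in leukemia cells, the active form of cytarabine. NAALADL2 resembles glutamate carboxypeptidase II, and its function is not well known.

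In RefSeq all 10 genes had a promoter entry, and the 250 bases before the start were read (GRCh38.p14). The windows of 4 genes are shown: the 2 genes that were on in SE and off in WT (WBP5 and SOHLH2), GNG11 as a gene far lower in WT, and EFNB2 as a graded one. Capitals mark CG dinucleotides, read from 5′ to 3′ on the strand of the gene. The WBP5 window is chrX:103356256-103356505 on the plus strand, SOHLH2 is chr13:36214557-36214806 on the minus strand, GNG11 is chr7:93921485-93921734 on the plus strand and EFNB2 is chr13:106535663-106535912 on the minus strand.
WBP5: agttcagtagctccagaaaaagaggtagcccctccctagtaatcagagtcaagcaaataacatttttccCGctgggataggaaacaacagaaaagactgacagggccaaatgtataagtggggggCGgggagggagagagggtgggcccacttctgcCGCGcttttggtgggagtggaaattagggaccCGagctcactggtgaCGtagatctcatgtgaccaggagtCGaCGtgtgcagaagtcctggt
SOHLH2: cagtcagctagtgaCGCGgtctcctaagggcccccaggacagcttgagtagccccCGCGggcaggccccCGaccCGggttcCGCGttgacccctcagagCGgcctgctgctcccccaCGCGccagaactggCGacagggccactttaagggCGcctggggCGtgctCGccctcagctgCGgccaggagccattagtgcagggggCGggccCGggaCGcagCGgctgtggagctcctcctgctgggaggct
GNG11: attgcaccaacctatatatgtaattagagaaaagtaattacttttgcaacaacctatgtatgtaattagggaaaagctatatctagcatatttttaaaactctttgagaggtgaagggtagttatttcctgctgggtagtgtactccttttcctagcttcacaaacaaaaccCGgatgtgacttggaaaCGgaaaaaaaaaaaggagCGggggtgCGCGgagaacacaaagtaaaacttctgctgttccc
EFNB2: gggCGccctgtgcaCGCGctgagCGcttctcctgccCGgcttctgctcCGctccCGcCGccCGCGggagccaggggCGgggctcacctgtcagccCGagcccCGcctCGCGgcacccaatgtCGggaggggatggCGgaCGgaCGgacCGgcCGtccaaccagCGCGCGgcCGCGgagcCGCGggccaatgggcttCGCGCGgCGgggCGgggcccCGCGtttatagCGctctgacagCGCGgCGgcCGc
The windows differ widely in CG content. GNG11 held 5 CG dinucleotides and WBP5 held 8, against a median of 11 over 35116 windows of the same length. SOHLH2 held 20, a number reached by 32.5% of all windows, and EFNB2 held 40, reached by 2.16%. Among the others, SAMHD1 and ZNF354B held 14 each, PRAF2 17, S100A4 7 and NAALADL2 0, while the 5 windows listed for PRKACB ran from 0 to 37. The motif TATAAA, searched on both strands, was in a window of 4 of the 10 genes (PRKACB, S100A4, EFNB2 and NAALADL2) and in 10.7% of all windows. For PRKACB it was in windows 2, 4 and 5 of its 5 and not in the first. The count per gene and the share per window are therefore unlike measures. The motif CACGTG was in the PRAF2 window only, of the 10 genes, and in 6.34% of all windows. Both the genes higher in SE and those lower in SE included windows above and below the median CG count. The letters are those of the reference and were not read from the libraries.

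All libraries carried the pre-B profile that the label gives: 20 of 20 B-lineage markers had a mean of at least 1 FPKM. Their sum was 3328 to 3867 FPKM in SE and 3907 to 3999 FPKM in WT. Absolute depth is unknown, since the files hold no counts. Relative to WT vehicle A, the steps left by single fragments in low rows gave a depth of 0.860 to 1.14 in SE libraries and 0.757 to 1.05 in WT libraries. Every RNA sample, from an equal number of cells, had received 1 µl of ERCC spike-in RNA diluted 1000-fold. These synthetic RNAs took 0.719% to 1.06% of the summed FPKM in SE and 0.531% to 0.569% in WT. DOX libraries held no more HMGN1 than vehicle libraries: SE DOX held 1421 (A) and 1061 (B) FPKM and SE vehicle 1427 (A) and 1066 (B). WT DOX held 792.9 (A) and 795.3 (B) FPKM and WT vehicle 809.2 (A) and 796.0 (B). The row does not say whether transcripts of the construct are counted on it, so these values do not show whether the construct was induced. Treatment names below are those of the labels.

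**Figure D1:**
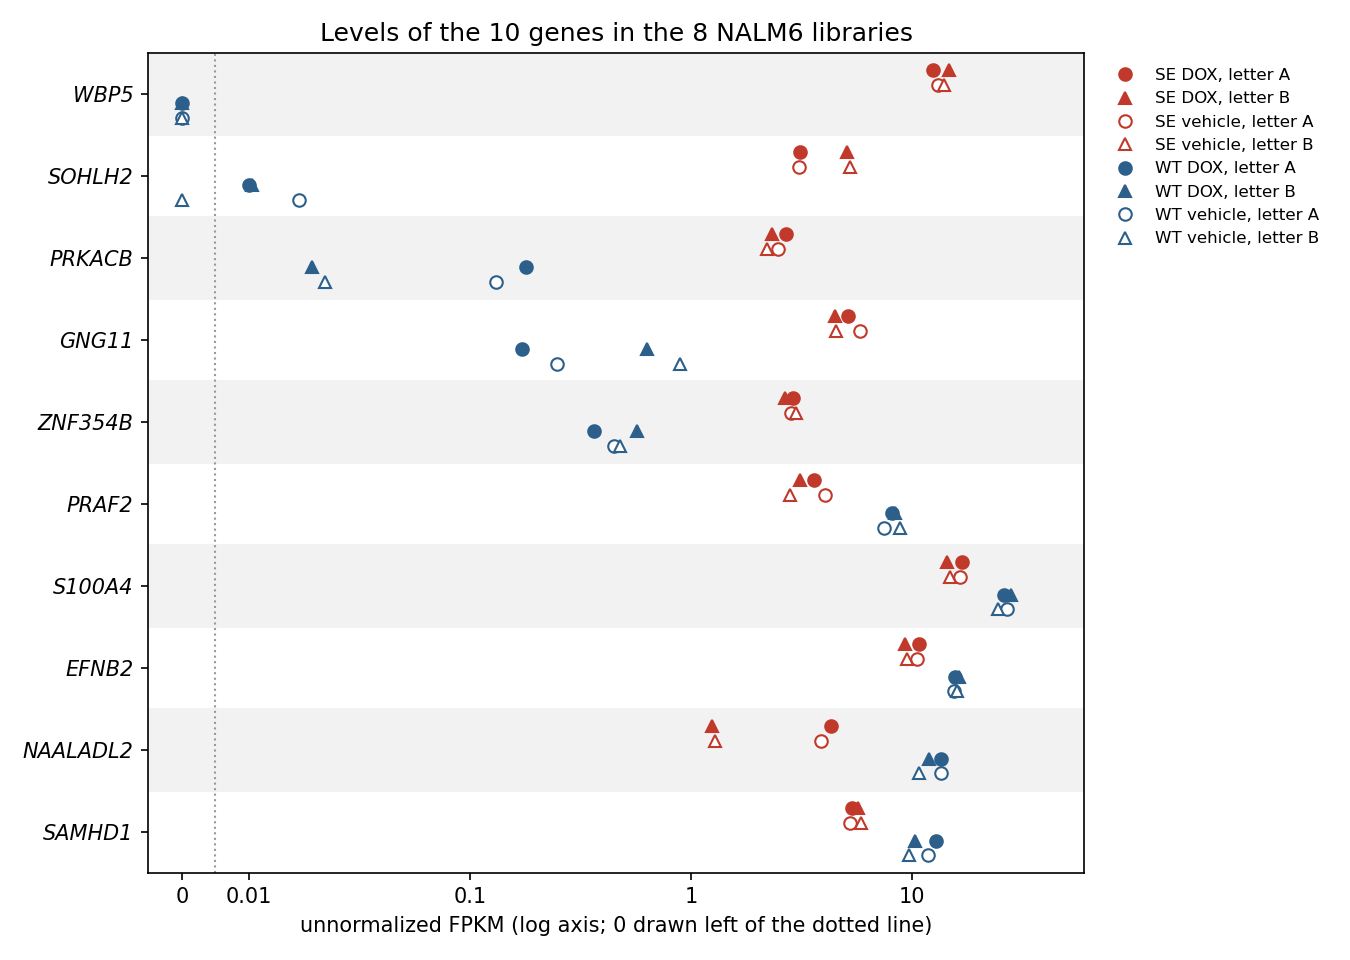
Unnormalized FPKM of the 10 genes (log axis, with 0 drawn left of the dotted line) in each of the 8 libraries. SE libraries are red and WT libraries blue, filled symbols are DOX and open symbols vehicle, circles are replicate A and triangles replicate B. SE and WT libraries do not overlap for any of the 10 genes, and WBP5 is at 0 in all 4 WT libraries.

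WBP5 and SOHLH2 were the 2 on/off genes. An on/off pattern was counted where a row had at most 0.1 FPKM in all 4 libraries of 1 construct and at least 1 FPKM in all 4 of the other. WBP5 had 12.4 (A) and 14.7 (B) FPKM in SE DOX and 13.1 (A) and 13.93 (B) in SE vehicle, and was listed at 0 in all 4 WT libraries. Without counts, a value listed at 0 cannot be told apart from a failed estimate, so off describes the deposited value and not a measured absence. SE libraries thus averaged 13.5 ± 0.997 FPKM (SD, n = 4), and the lowest of them stood at 12.4. SOHLH2 had 3.105 (A) and 5.078 (B) FPKM in SE DOX and 3.087 (A) and 5.251 (B) in SE vehicle. In WT DOX it was listed at 0.01 (A) and 0.0104 (B) FPKM, and in WT vehicle at 0.0169 (A) and 0 (B). SOHLH2 was higher in SE libraries of letter B than in those of letter A, and at or near the lowest value the table holds in every WT library. That lowest nonzero value is 0.01, which stands exactly in 6285 cells of the table, so levels this low are not resolved and no fold is given for these 2 genes. Reads of SOHLH2 can be divided with the read-through row CCDC169-SOHLH2, which was at most 0.01 FPKM in all 8 libraries.

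The on/off pattern was rare and ran in 1 direction. Of 23621 gene rows, 5 met it (0.0212%), all on in SE and off in WT, and 0 rows met the reverse. Beside WBP5 and SOHLH2 these were WDR11, named after its values were seen, and 2 rows with names of small RNAs. WDR11, which encodes a WD-repeat protein, had 1.44 (A) and 1.251 (B) FPKM in SE DOX and 1.491 (A) and 1.332 (B) in SE vehicle, with at most 0.01 in WT. Without SE DOX replicate A the count was 8, and with off set at exactly 0 it was 3, of which WBP5 was the 1 gene of the 10. Under the looser rule of at least 1 FPKM in every SE library and under 1 in every WT library there were 29 rows, 5 of them among the 10 genes. The reverse held for 6 rows and 0 of the 10. Fewer cells with a transcript and less of it per cell cannot be told apart in bulk RNA.

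PRKACB, GNG11 and ZNF354B came next: clearly above 1 FPKM in SE and detected at a low level in WT. PRKACB, the kinase subunit, had 2.678 (A) and 2.315 (B) FPKM in SE DOX and 2.479 (A) and 2.212 (B) in SE vehicle. In WT DOX it had 0.1796 (A) and 0.0193 (B) FPKM, and in WT vehicle 0.1311 (A) and 0.0221 (B). Only the WT libraries of letter A, just above 0.1 FPKM, kept PRKACB out of the on/off rows, and the nearest SE and WT libraries were still 12.3-fold apart. Means were 2.42 ± 0.204 FPKM in SE and 0.0880 ± 0.0803 FPKM in WT (SD, n = 4 each), the WT spread being nearly as large as the WT mean. Its row does not say which of its several starts was used.

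GNG11, the G-protein subunit, had 5.095 (A) and 4.486 (B) FPKM in SE DOX and 5.768 (A) and 4.497 (B) in SE vehicle. WT DOX libraries held 0.1715 (A) and 0.6341 (B) FPKM and WT vehicle libraries 0.2468 (A) and 0.8893 (B). GNG11 in WT was thus higher in both libraries of letter B, the reverse of PRKACB. SE averaged 4.96 ± 0.609 FPKM and WT 0.485 ± 0.337 FPKM (SD, n = 4 each), a ratio of means of 10.2, with 5.04 between the nearest and 33.6 between the farthest libraries. ZNF354B, the zinc finger gene, had 2.892 (A) and 2.651 (B) FPKM in SE DOX and 2.833 (A) and 2.976 (B) in SE vehicle. In WT it had 0.3619 (A) and 0.5688 (B) FPKM with DOX and 0.4461 (A) and 0.4781 (B) with vehicle. ZNF354B showed no overlap between its constructs and little spread within them, with a ratio of 6.12 between means of 2.84 ± 0.138 FPKM in SE and 0.464 ± 0.0855 FPKM in WT (SD, n = 4 each). The nearest libraries were 4.66-fold apart.

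NAALADL2, PRAF2, SAMHD1, S100A4 and EFNB2 were lower in SE but present in all 8 libraries, each at 1 FPKM or more throughout, so these differences were graded. NAALADL2 showed the largest of them and the least even levels. It had 4.287 (A) and 1.237 (B) FPKM in SE DOX and 3.865 (A) and 1.285 (B) in SE vehicle, against 13.49 (A) and 11.88 (B) in WT DOX and 13.54 (A) and 10.72 (B) in WT vehicle. Both SE libraries of letter B were near 1.3 FPKM, while those of letter A were near 4. Means were 2.67 ± 1.63 FPKM in SE and 12.4 ± 1.37 FPKM in WT (SD, n = 4 each), a ratio of 0.215.

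PRAF2, the secretory-pathway protein, had 3.589 (A) and 3.117 (B) FPKM in SE DOX and 4.044 (A) and 2.789 (B) in SE vehicle. WT DOX held 8.051 (A) and 8.325 (B) FPKM and WT vehicle 7.474 (A) and 8.762 (B). Means were 3.39 ± 0.549 FPKM in SE and 8.15 ± 0.539 FPKM in WT (SD, n = 4 each), a ratio of 0.415. The highest SE library stood at 0.541 of the lowest WT library. SAMHD1, the deoxynucleotide-degrading enzyme, had 5.354 (A) and 5.682 (B) FPKM in SE DOX and 5.241 (A) and 5.863 (B) in SE vehicle. In WT it had 12.76 (A) and 10.3 (B) FPKM with DOX and 11.72 (A) and 9.636 (B) with vehicle. The SE libraries of SAMHD1 lay close together, at 5.54 ± 0.287 FPKM, against 11.1 ± 1.4 FPKM in WT (SD, n = 4 each), a ratio of 0.498.

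S100A4 and EFNB2 had the smallest differences and the highest levels of the graded genes. S100A4 had 16.7 (A) and 14.33 (B) FPKM in SE DOX and 16.43 (A) and 14.87 (B) in SE vehicle, against 25.98 (A) and 28.07 (B) in WT DOX and 26.66 (A) and 24.41 (B) in WT vehicle. Its means were 15.6 ± 1.16 FPKM in SE and 26.3 ± 1.52 FPKM in WT (SD, n = 4 each), a ratio of 0.593. The adjacent row S100A5 was at most 0.116 FPKM in any library. EFNB2 had 10.7 (A) and 9.271 (B) FPKM in SE DOX and 10.46 (A) and 9.448 (B) in SE vehicle, against 15.61 (A) and 16.2 (B) in WT DOX and 15.39 (A) and 15.84 (B) in WT vehicle. Its WT libraries were the tightest of any of the 10 genes relative to their mean, at 15.8 ± 0.346 FPKM, against 9.97 ± 0.716 FPKM in SE (SD, n = 4 each). EFNB2 had a ratio of 0.633, and its highest SE library stood at 0.696 of its lowest WT library.

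Separation of the constructs without overlap was not rare in itself. Of 11340 genes with a mean of at least 1 FPKM, 2200 (19.4%) had SE and WT libraries that did not overlap, 895 higher and 1305 lower in SE, and the 10 genes are among them by selection. Sizes varied more. The median absolute difference over the 11340 genes was 0.10 on the scale of log2(FPKM + 0.1), and 58 genes were both separated and at least 1 apart on that scale, 7 of them among the 10. By size among the 2200, PRKACB ranked 5, GNG11 6, ZNF354B 10 and NAALADL2 12. PRAF2 ranked 31, SAMHD1 60, S100A4 112 and EFNB2 149.

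**Figure D2:**
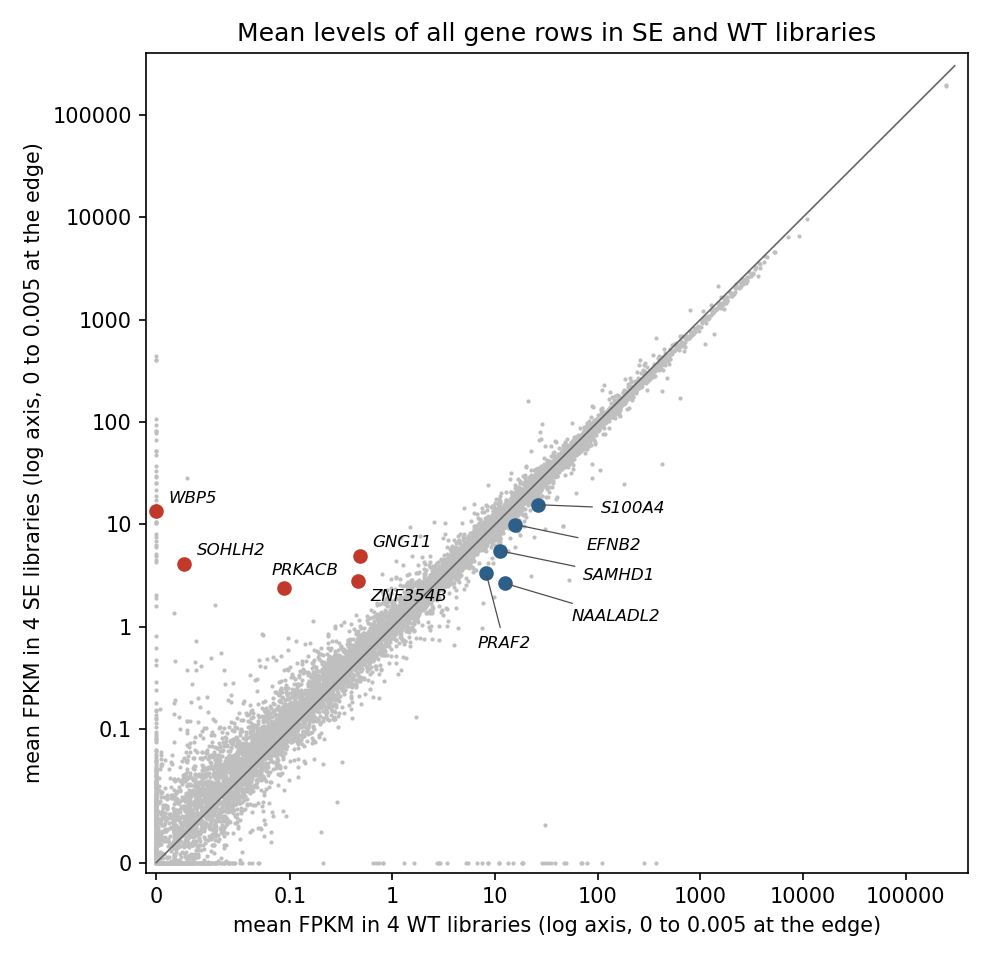
Mean unnormalized FPKM over 4 SE libraries (vertical) against that over 4 WT libraries (horizontal) for all 23621 gene rows, both on log axes with values up to 0.005 at the edge and a line of equality. The 5 genes higher in SE (red) lie far left of the bulk at WT means from 0 to 0.485 FPKM, and the 5 lower in SE (blue) lie just below it.

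In the normalized table all of these differences lay lower. There, the median SE minus WT difference over genes was -0.43 on the log2 scale, against -0.02 in the unnormalized one. Ratios of SE over WT means were then 6.70 for GNG11, 3.98 for ZNF354B, 0.158 for NAALADL2, 0.315 for PRAF2, 0.377 for SAMHD1, 0.447 for S100A4 and 0.477 for EFNB2. Ratios were thus nearer to 1 for genes higher in SE and farther from 1 for genes lower in SE than in the unnormalized table, and no direction changed. WBP5 in WT is 0 before this normalization and 0.108 to 0.121 FPKM after it, so that scale has a lower limit of its own, and no source states how it arose.

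In the unnormalized table the construct difference was nearly the same in size with DOX and with vehicle. Its direction within a treatment is fixed by the selection of separated libraries. On the log2(FPKM + 0.1) scale the SE minus WT difference of PRKACB was 3.83 with DOX and 3.86 with vehicle, that of GNG11 3.45 and 3.15, and that of ZNF354B 2.37 and 2.42. For the genes lower in SE it was -2.40 with DOX and -2.37 with vehicle for NAALADL2, -1.27 and -1.24 for PRAF2, -1.04 and -0.93 for SAMHD1, -0.80 and -0.70 for S100A4, and -0.67 and -0.65 for EFNB2. In the normalized table the DOX effect in SE minus that in WT has a median of -0.21 over all genes, and differences there carry that shift. GNG11 differed most between the treatments, and it is also the gene with the highest DOX to vehicle gap within a letter, 0.43, the other genes having 0.03 (EFNB2) to 0.27 (PRKACB).

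No response of the 10 genes to DOX was detected. limma, fitted to log2(FPKM + 0.1) of all 11340 genes at a threshold of 0.05 on p-values adjusted by Benjamini-Hochberg, called 0 of 10 in SE. In WT, WBP5 is at 0 and SOHLH2 at the unresolved low end of the table, and 0 of the other 8 were called, as for the DOX effect in SE minus the DOX effect in WT. None of these had an unadjusted p under 0.05 in any of the 3 contrasts in this fit to group means. With libraries paired by letter and small RNA names left out, GNG11 in WT had an unadjusted p of 0.0046 (limma adjusted p = 0.999). Over all genes it called 6 (0.0529%) in SE, 5 (0.0441%) in WT and 5 (0.0441%) for the difference of effects, with 34, 38 and 38 genes at an unadjusted p under 0.05. Calls were so few everywhere that the zeros among the 10 do not set them apart. Of the 5 called in WT, 3 were higher and 2 lower, and in the normalized table there were 3 higher and 5 lower.

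The intervals below come from the fit to group means, which does not pair libraries by letter. For EFNB2 the DOX minus vehicle difference in SE was 0.00 (95% interval -0.21 to 0.22) and in WT 0.03 (-0.19 to 0.24). For S100A4 it was -0.01 (-0.26 to 0.23) in SE and 0.08 (-0.16 to 0.32) in WT, and for SAMHD1 -0.01 (-0.34 to 0.33) in SE and 0.11 (-0.23 to 0.44) in WT. The bounds for these 3 genes lay well inside their construct differences. NAALADL2 had wide intervals in this fit, with 0.05 (-1.53 to 1.62) in SE and 0.07 (-1.51 to 1.65) in WT, and its replicate letters were far apart. GNG11 had wide ones too, with -0.09 (-1.57 to 1.39) in SE and -0.39 (-1.87 to 1.09) in WT. The remaining SE differences were between -0.07 (ZNF354B) and 0.09 (PRKACB). Their intervals ran from -0.44 to 0.43 for PRAF2, the narrowest, to -1.27 to 1.44 for PRKACB, the widest. In WT, PRKACB had 0.12 (-1.23 to 1.47), ZNF354B -0.02 (-0.60 to 0.57) and PRAF2 0.02 (-0.42 to 0.45).

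**Figure D3:**
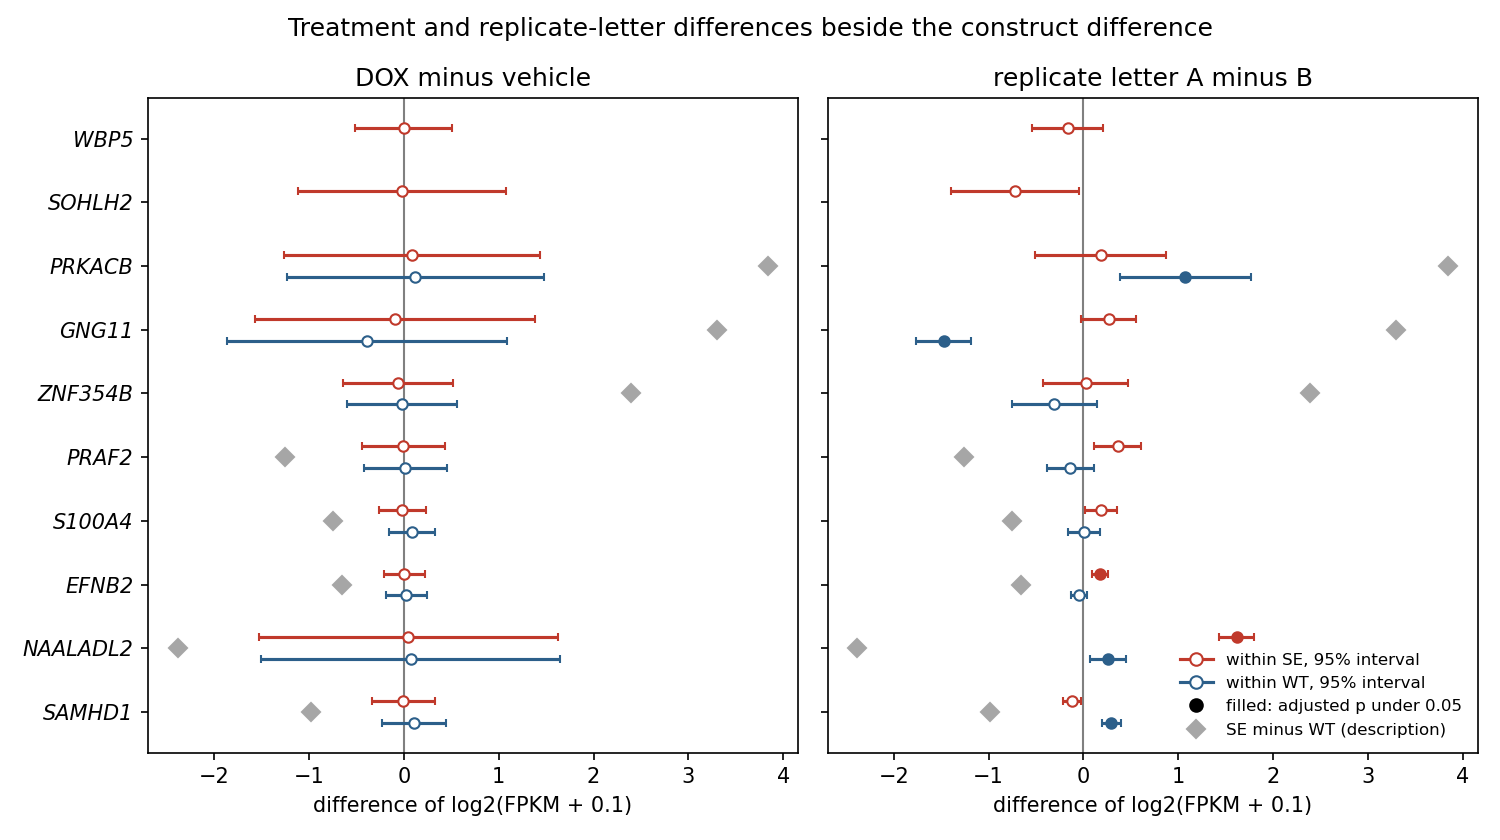
Differences of log2(FPKM + 0.1) for DOX minus vehicle (left) and replicate A minus B (right) within SE (red) and WT (blue), with 95% intervals from limma and filled symbols at an adjusted p under 0.05. Grey diamonds are SE minus WT, left out for WBP5 and SOHLH2, which have a WT library at 0 and no WT values drawn. All DOX intervals drawn come from the fit to group means and span 0. The letter intervals come from a different fit, with a DOX term per construct. On the right, NAALADL2 and EFNB2 in SE and GNG11, PRKACB, NAALADL2 and SAMHD1 in WT are filled.

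Several of the 10 genes differed between the replicate letters, as did a large share of all genes. The calls for letters and for DOX came from different fits and cannot be compared directly. The DOX fit to group means left the spread between letters in its error, while the letter fit took it out. Over all genes the intervals reached a median of 0.258 to each side for DOX and 0.109 for letters, in SE and in WT. limma with the mean of each construct and letter called 2 of 10 in SE, against 3352 of 11340 genes (29.6%), and 4 of 9 in WT, against 4213 (37.2%). The 9 in WT leave out WBP5 but include SOHLH2, which lies at the unresolved low end there and was not called. These counts are near the share over all genes and are no property of the 10. The called genes over all were 1202 higher and 2150 lower in SE, but 287 higher and 6305 lower in the normalized table, whose median A minus B difference in SE is -0.27. In WT they were 2181 higher and 2032 lower, but 4415 higher and 304 lower in the normalized table, whose median is 0.22. Genes selected for separated constructs also leave less room for spread within a construct.

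In SE the letters separated NAALADL2 most. The A minus B difference was 1.62 (95% interval 1.43 to 1.80; limma adjusted p = 0.00415), from 4.08 FPKM in letter A and 1.26 FPKM in letter B. EFNB2 differed by 0.18 (0.09 to 0.26; adjusted p = 0.0215), with 10.6 FPKM in letter A and 9.36 FPKM in letter B. The EFNB2 direction turned to -0.08 in the normalized table, with adjusted p = 0.446. SOHLH2 did not pass at -0.72 (adjusted p = 0.0977), with 3.10 FPKM in letter A and 5.16 FPKM in letter B, nor did PRAF2 at 0.36 (adjusted p = 0.0513) or S100A4 at 0.18 (adjusted p = 0.0972). These 3 genes were called once rows with small RNA names were left out, with adjusted p of 0.00987, 0.00986 and 0.0297. WBP5, GNG11, PRKACB, ZNF354B and SAMHD1 did not pass, with differences between -0.17 (WBP5) and 0.27 (GNG11). In the normalized table SAMHD1 passed at -0.37 (adjusted p = 0.000739) and SOHLH2 at -0.87 (adjusted p = 0.0112), where the median over all genes is the -0.27 given above.

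In WT the letters separated other genes. GNG11 differed by -1.47 (-1.76 to -1.18; limma adjusted p = 0.00282), with 0.209 FPKM in letter A and 0.762 FPKM in letter B. PRKACB differed by 1.07 (0.38 to 1.77; adjusted p = 0.0361), with 0.155 FPKM in letter A and 0.0207 FPKM in letter B. With a pseudocount of 1 in place of 0.1 the PRKACB difference was 0.18, with adjusted p = 0.122. SAMHD1 differed by 0.29 (0.19 to 0.39; adjusted p = 0.00757) and NAALADL2 by 0.26 (0.07 to 0.44; adjusted p = 0.0466), both higher in letter A. ZNF354B, PRAF2, S100A4 and EFNB2 did not pass, with differences of -0.31, -0.14, 0.01 and -0.05. Leaving out any 1 library of a construct left a letter with 1 library, and then 0 of the 10 were called in that construct. Without any 1 library of the other construct, SOHLH2 or EFNB2 in SE or NAALADL2 in WT changed sides of the threshold: without a WT library EFNB2 had adjusted p of 0.0726 to 0.0743 and SOHLH2, with letter A still lower, 0.0470 to 0.0488, and without an SE library NAALADL2 had 0.0762 to 0.0807.

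The construct difference also varied in size between the letters, while its direction within a letter is fixed by the selection of separated libraries. The labels do not say that a letter links SE and WT libraries, so setting the same letters against each other is arbitrary. The variation between letters restates the A minus B difference in SE less that in WT. For the genes higher in SE it was 3.40 in letter A and 4.29 in letter B for PRKACB, 4.17 and 2.43 for GNG11, and 2.56 and 2.23 for ZNF354B. NAALADL2 had -1.71 in letter A and -3.06 in letter B, PRAF2 -1.01 and -1.50, and SAMHD1 -1.19 and -0.78. S100A4 had -0.66 and -0.84, and EFNB2 -0.55 and -0.77. In this table the difference varied more between letters than between treatments for all 8 of these genes. In the normalized table it did not for ZNF354B, with 1.68 under DOX, 1.98 under vehicle, 1.75 in letter A and 1.91 in letter B, nor for PRAF2, with -1.76, -1.53, -1.63 and -1.65 in the same order.

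The 10 other genes with the largest separated differences mostly differed between the letters in WT. Likeness here is the size of the mean SE minus WT difference over 8 libraries among genes that do not overlap and have a mean of at least 1 FPKM, which leaves out WDR11, with names of small RNAs and of uncharacterized loci skipped, 4 names in all. ZSCAN18, another zinc finger gene, had 2.464 to 2.938 FPKM in SE and 0 to 0.956 FPKM in WT, of which letter A averaged 0.00795 and letter B 0.907 FPKM. C10orf10 (2.0), NKAIN4 (1.67) and XAF1 (1.61) were also higher in SE. IGJ, the joining chain of immunoglobulins, was lower in SE, with 0.7331 to 1.215 FPKM in SE and 2.173 to 12.59 FPKM in WT, a difference of -2.39. VNN1 (-2.26), TOX (-1.75), KLRK1 (-1.60) and PCDH10 (-1.59) were also lower in SE. The A minus B difference was called in WT for 9 of these 10, against 37.2% of all genes tested. In SE it was called for 4, near the share of 29.6% over all genes tested. These genes share the libraries with the first 10, and nothing follows about shared control.

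Relatives of the 10 genes were examined next, since the selection did not choose them. Of 115 genes in 10 lists all were in the table and 54 had a mean of at least 1 FPKM. limma called 0 of 54 for SE minus WT, averaged over the treatments. Over all genes it called 56 of 11340 (0.494%), 34 higher and 22 lower in SE, with 1939 genes (17.1%) at an unadjusted p under 0.05. This fit takes the 4 libraries of a construct as independent, although they carry only 2 replicate letters. Its p-values and intervals, here and for the neighbours below, may therefore be too small. When limma was run on the means of each letter, 0 of 54 relatives were called. Of the relatives, 14 of 54 (25.9%) had an unadjusted p under 0.05. Libraries were separated for 13 (24.1%), against 19.4% of all genes tested, and 7 of the 13 were genes of deoxynucleotide supply. The 54 relatives had a median difference of -0.05 and a range of -0.40 to 0.75. In the normalized table, where 48 genes were called higher and 6888 lower, 0 relatives were called higher and 30 lower.

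By family, the relatives of the on/off genes were level or silent. TCEAL8 and TCEAL1, the 2 tested of 13 BEX and TCEAL genes, had 16.12 and 11.05 FPKM in SE, against 16.97 and 11.03 FPKM in WT. None of 10 germ-cell regulators listed beside SOHLH2 reached a mean of 1 FPKM, and the highest level was 0.63 FPKM, of SYCP3, a protein of the meiotic chromosome axis. PRKACA, the other main catalytic subunit of protein kinase A, had 27.0 FPKM in SE and 24.8 FPKM in WT, a difference of 0.12 (95% interval -0.00 to 0.24; limma adjusted p = 0.295). PRKAR1B, a regulatory subunit, had -0.27 (adjusted p = 0.282). Of 12 tested G-protein beta and gamma genes, GNB3 had 0.38 (adjusted p = 0.204) and GNGT2 -0.32 (adjusted p = 0.237). ZNF354A, the closest relative of ZNF354B tested, had 3.997 FPKM in SE and 4.088 FPKM in WT, and TRIM28 had 179 FPKM in SE and 195 FPKM in WT.

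Relatives of the graded genes had moderate differences that did not pass. Among the tested genes of the S100 list, S100A10, a partner of annexin A2, had 11.6 FPKM in SE and 15.1 FPKM in WT, a difference of -0.39 (95% interval -0.55 to -0.22; limma adjusted p = 0.108). When limma was run on the means of each letter, S100A10 had an adjusted p of 0.766. S100A1 went the other way at 0.61 (adjusted p = 0.284), with 5.95 FPKM in SE and 4.02 FPKM in WT. Of 5 tested ephrins and Eph receptors, EFNA1 had 1.41 FPKM in SE and 0.860 FPKM in WT, a difference of 0.66 (adjusted p = 0.192), and EFNA3 had -0.40 (adjusted p = 0.266). The PRA1-family genes ARL6IP5 and RABAC1 had -0.20 (adjusted p = 0.291) and -0.06 (adjusted p = 0.676). All 17 genes of deoxynucleotide supply were tested: ADA, adenosine deaminase, had 0.30 (adjusted p = 0.207) and RRM2, a ribonucleotide reductase subunit, -0.27 (adjusted p = 0.222). TFRC, the transferrin receptor and the 1 tested relative of NAALADL2, had -0.14 (adjusted p = 0.533).

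No tested neighbouring gene passed either. The 10 genes lie on 7 chromosomes, with WBP5 and PRAF2 on X, SOHLH2 and EFNB2 on 13, PRKACB and S100A4 on 1, and the others alone on 3, 5, 7 and 20. For comparison, 3.28% of tested genes with a known chromosome are on X. The order of genes was taken from RefSeq (GRCh38.p14). Of the 5 nearest protein-coding genes on each side, 94 of 100 were in the table and 41 were tested. TCEAL1, TCEAL8, GNG5, ZNF354A, S100A6, S100A13 and S100A16 are also among the tested relatives. The results for neighbours and relatives are therefore not independent, and S100A16 has the highest difference of both. limma called 0 of 41 for SE minus WT, with 7 (17.1%) at an unadjusted p under 0.05 against 17.1% over all genes, a median of 0.00 and a range of -0.59 to 0.75. After normalization, 0 neighbours were called higher and 22 lower.

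Single neighbours show the scale of these differences. MROH8, near SAMHD1, had 1.48 FPKM in SE and 2.30 FPKM in WT, a difference of -0.59 (limma adjusted p = 0.258), the same direction as SAMHD1. KCND1, a potassium channel gene near PRAF2, went the opposite way to PRAF2, with 1.80 FPKM in SE and 1.18 FPKM in WT, a difference of 0.56 (adjusted p = 0.218). S100A16, near S100A4, also ran opposite at 0.75 (adjusted p = 0.378), with WT libraries from 8.798 to 26.87 FPKM. AGXT2L2 near ZNF354B had 0.35 (adjusted p = 0.197) and ZMAT3 near NAALADL2 0.42 (adjusted p = 0.259). RFC3 near SOHLH2 had -0.18 (adjusted p = 0.210), CCDC132 near GNG11 -0.14 (adjusted p = 0.386), IFI44 near PRKACB -0.13 (adjusted p = 0.709) and ERCC5 near EFNB2 -0.06 (adjusted p = 0.472). TCEAL8, near WBP5, had -0.08 (adjusted p = 0.804). Neighbours under a mean of 1 FPKM were not tested. Among them, C20orf118 beside SAMHD1 had 0.2078 to 0.2899 FPKM in SE and 0.555 to 0.6585 FPKM in WT, lower in SE like SAMHD1. ZFP2 beside ZNF354B had 0.04899 to 0.08857 FPKM in SE and 0 to 0.01007 FPKM in WT, higher in SE like ZNF354B. All ZFP2 values lay under the off limit of 0.1 FPKM. For the other untested neighbours with a row, SE and WT ranges overlapped or met.

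**Figure D4:**
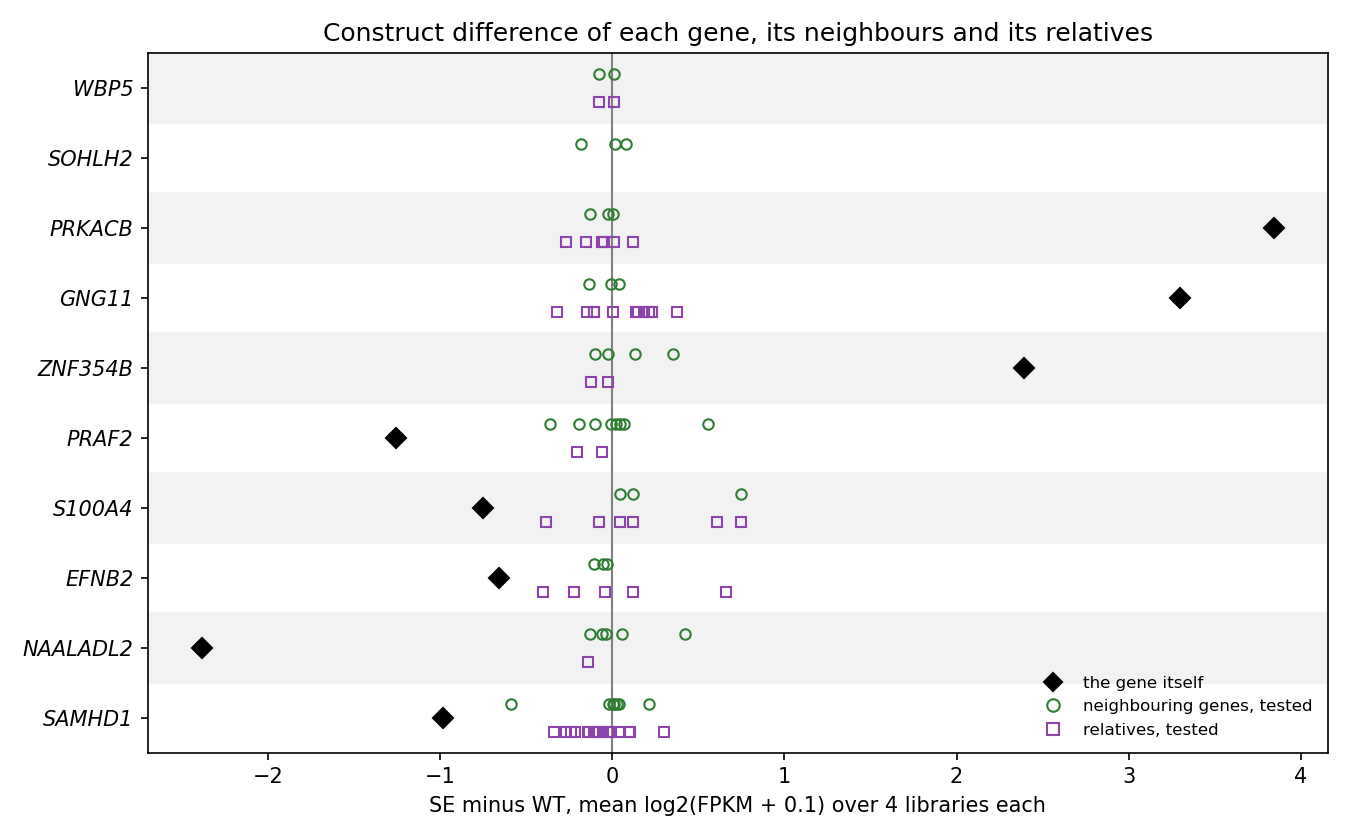
SE minus WT difference of mean log2(FPKM + 0.1) over 4 libraries each for the genes themselves (black diamonds, left out for WBP5 and SOHLH2, which have a WT library at 0), their tested neighbours (green circles) and tested relatives (purple squares). Neighbours lie between -0.59 and 0.75 and relatives between -0.40 and 0.75, and 0 of either were called.

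Markers of other cell types were low in both constructs. Germ-cell markers, a class that SOHLH2 belongs to by its role, summed to 0.340 to 0.689 FPKM in SE and 0.356 to 0.605 FPKM in WT, with 0 of 6 at a mean of 1 FPKM. All of these germ-cell markers are also in the list of SOHLH2 relatives. Endothelial markers, of interest beside EFNB2, had 0 of 6 and summed to 0.0732 to 0.116 FPKM in SE and 0.0673 to 0.139 FPKM in WT. Megakaryocyte markers, a lineage in which GNG11 is abundant, summed to 3.13 to 3.71 FPKM in SE and 2.62 to 2.80 FPKM in WT, with 2 of 6 (GP1BA and TUBB1) at a mean of 1 FPKM and 2 of 6 at 0 in all libraries. Adherent-cell markers summed to 3.24 to 5.74 FPKM in SE and 2.77 to 3.28 FPKM in WT, with 1 of 7 (TAGLN) at that mean. The megakaryocyte sum, higher in SE, and the B-lineage sum, lower in SE, did not overlap between the constructs, and the adherent-cell sum overlapped little. For comparison, 19.4% of single genes tested did not overlap. The part of these lists in the differences above was not tested. T-cell, myeloid and erythroid lists had 1 of 10, 2 of 11 and 0 of 6 markers at a mean of 1 FPKM, and limma called 0 markers of any list for SE minus WT.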

How the data were processed

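Poly(A) RNA of 8 NALM6 libraries was measured by RNA sequencing. The authors deposited an unnormalized and a normalized FPKM table that hold 23713 rows each, 92 of them for spike-ins. The tools named per the submitters' processing notes are HISAT and Cufflinks 2.0.0, the build is hg19, and how the second table was normalized is not stated. Since FPKM are scaled to library size, a change common to every gene does not show, and reads of overlapping or near-identical genes can be divided between rows. Groups came from the treatment and genotype labels and letters from the replicate labels.

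Genes with a mean of at least 1 FPKM were kept, and log2(unnormalized FPKM + 0.1) was fitted with limma 3.58.1 under R 4.3.3 (moderated variances with trend, Benjamini-Hochberg over all 11340 genes, threshold 0.05). Differences on this scale understate the change of low genes. DOX contrasts used the means of 4 groups, and A minus B contrasts the means of construct and letter with a DOX term per construct. The code was tested on simulated data. Tables were read with Python 3.11.15 and pandas 2.3.3. FPKM carry no counts, so depth is only relative and no counting interval is given.

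The 10 genes, the lists of relatives and markers and the on/off limits were chosen with earlier results of these data known. Named beside the 10 were the 10 most separated other genes, the relatives called or the 2 of smallest p per list, and the neighbours called or the 1 of smallest p per gene. Alternatives were the normalized table, pseudocounts of 0.01 and 1, no minimum level, small RNA names left out, each library left out, letter means and a replicate block. Combinations with small RNA names left out were added after the data were seen. A gene that this rule selects is not reported here.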

Additional observations from a re-analysis of the deposited data

How the results depend on the processing

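None of the 10 genes was called for DOX in SE, DOX in WT or the difference of effects under any alternative run, the letter block included. Over all genes, calls for DOX in SE (6 as reported) were 57 with no minimum level, 0 without small RNA names, 3 with the replicate block, 0 with the block and without small RNA names, and 5 to 24 leaving out 1 library. For DOX in WT (5) they were 8 in the normalized table, 44 with no minimum, 0 without small RNA names, 0 with the replicate block and without them, and 4 to 12 leaving out 1 library. For the difference of effects (5) they were 9 in the normalized table, 8 with a pseudocount of 1, 79 with no minimum, 0 without small RNA names, 0 with the block and without them, and 6 to 28 leaving out 1 library. A minus B calls in SE (3352) were 6592 in the normalized table, 648 with no minimum and 24 to 1199 leaving out 1 library, and in WT (4213) they were 1387 with no minimum and 73 to 2436. Of the 10 genes, A minus B calls in SE (2) were 1 with no minimum, 5 without small RNA names and 0 to 2 leaving out 1 library, and in WT (4) they were 1 and, leaving out 1 library, 0 to 3. The EFNB2 A minus B difference in SE reversed to -0.0838 in the normalized table. SE minus WT calls (56) were 6936 in the normalized table, 170 with no minimum, 10 with letter means, 5 with letter means and without small RNA names, 141 with a replicate block across constructs, and 19 to 46 leaving out 1 library. Rows on in 1 construct and off in the other (5) were 3 with off at exactly 0 and up to 8 without 1 library. The labels do not say what same-lettered DOX and vehicle libraries share, and with 2 letters per construct they were not taken as pairs. Deviations of A from B in DOX and in vehicle correlated at 0.0929 in SE and 0.0732 in WT over genes, and at 0.72 and 0.757 without small RNA names. In the replicate block without those names the DOX intervals were narrower: NAALADL2 had 0.05 (95% interval -0.11 to 0.20) in SE and 0.07 (-0.09 to 0.23) in WT, and GNG11 had a DOX difference in WT of -0.39 (95% interval -0.63 to -0.16), with an unadjusted p of 0.0046 and limma adjusted p = 0.999. SAMHD1 had a DOX difference in WT of 0.11 (95% interval 2.39e-05 to 0.22), with an unadjusted p of 0.05 and limma adjusted p = 0.999. The intervals of GNG11 and SAMHD1 in WT thus left out 0, while those of the other genes spanned it. With the letters as pairs, the bounds for NAALADL2 were closer than those given for the group means. The cause of these changes was not tested. The on/off genes are limited by the lowest nonzero value listed, 0.01 FPKM, since levels under it are not resolved.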
